A study of Mus musculus with 2 samples.

Results

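The 7 hairpin genes described here are Mir25, Mir93 and Mir106b, which lie together in an intron of Mcm7, and Mir92-1, Mir92-2, Mir363 and Mir32, which share the seed of miR-25. They are 7 of 1174 annotated miRNA hairpin genes. Their members are sequences of 15 to 17 nt with an exact, full-length sense match in one of these hairpins, and 35 distinct sequences met that rule. The reads came from the embryonic stem cell line J1, made from the inner cell mass of 129S4/SvJae mice. It was adapted to gelatin and cultured in medium with Knockout Serum Replacement, and both groups were given LIF, the cytokine that maintains self-renewal, at 1000 U/mL. One library came from cells kept for 24 h with 3 µM SB431542, which blocks the activin, Nodal and TGF-beta type I receptor kinases, and the other from cells kept for 24 h with an equal volume of its solvent, DMSO. With 1 library a group there is no replicate check and no p-value, and every interval is an exact 95% interval of counting error only. The reads analysed are at most 17 nt long, so each value describes short fragments of a miRNA; mature miRNAs of full length are not analysed here.

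Mature miRNAs are cut by Dicer from one or both arms, named 5p and 3p, of a hairpin, and Argonaute proteins hold them. Bases 2 to 8 from the 5′ end, the seed, pair with target messenger RNAs, so miRNAs with one seed share many predicted targets. The miR-106b-25 cluster is transcribed with Mcm7, a subunit of the replicative helicase, and is a paralogue of the miR-17-92 and miR-106a-363 clusters. These clusters are known for promoting proliferation and for limiting cell cycle inhibitors and the proapoptotic gene Bim.

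The members fall into a pair of seed groups, and their mature sequences are shown because the reads below are read against them. All are from the RefSeq table for GRCm38.p6, in which each of the 7 hairpins matched, with bases 2 to 8 in capitals. The first group has the seed AUUGCAC, which in miR-32 lies on the 5p arm and in the others on the 3p arm.
miR-25-3p: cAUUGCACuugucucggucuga
miR-92a-3p: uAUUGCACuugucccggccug
miR-363-3p: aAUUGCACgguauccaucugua
miR-32-5p: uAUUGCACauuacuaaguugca
The second group has the seed AAAGUGC, which is also that of miR-17-5p, miR-20a-5p, miR-20b-5p and miR-106a-5p.
miR-93-5p: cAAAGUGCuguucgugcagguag
miR-106b-5p: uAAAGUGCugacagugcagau

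Over their first 17 bases miR-25-3p and miR-92a-3p have 15 in common and differ by C1U and U14C, given as the base of miR-25-3p, its position from the 5′ end and the base of miR-92a-3p. On the same count miR-25-3p shares 11 bases with miR-32-5p and 8 with miR-363-3p. Reads of 15 to 17 nt from the mature 5′ end therefore separate these miRNAs by sequence. Mir92-1 and Mir92-2 give the same miR-92a-3p and cannot be separated over it.

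In the GRCm38 annotation the 3 hairpins of the Mcm7 cluster lie on the minus strand of chromosome 5, within intron 13 of one protein-coding transcript of Mcm7 and intron 8 of another. Mir106b is at chr5:138165737-138165818, Mir93 at chr5:138165523-138165610 and Mir25 at chr5:138165321-138165404, with 126 and 118 bases between them. Mir25 and Mir93 also fall in an exon of a retained-intron transcript of Mcm7. Mir92-1 is at chr14:115044427-115044506 on the plus strand, in an exon of the noncoding host gene Mir17hg. Mir92-2 (chrX:52741838-52741928) and Mir363 (chrX:52741693-52741767) are neighbours on the minus strand of chromosome X with 70 bases between them and with no annotated host on that strand. Mir32 is at chr4:56895229-56895298 on the minus strand, in an intron of Tmem245.

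The hairpin of Mir25 is printed 5′ to 3′ because nearly all member reads came from a single stretch of it. The capitals mark the most abundant member sequence, a 15 nt fragment at chr5:138165339-138165353.
Mir25: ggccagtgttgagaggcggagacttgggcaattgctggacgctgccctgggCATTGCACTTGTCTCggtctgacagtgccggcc

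The member hairpins held 10548 reads with DMSO and 3006 with SB431542. That is 13.5% of the 77896 miRNA reads with DMSO (13.3 to 13.8) and 13.8% of the 21802 with SB431542 (13.3 to 14.3), where miRNA reads are those of 15 to 17 nt assigned to any annotated hairpin. Of the 35 sequences, 26 were seen with DMSO, 19 with SB431542 and 10 in both. The libraries differed in depth, and this overlap was not set against that of all 943 distinct miRNA sequences. No read matched a member hairpin on the antisense strand in either library. As a check of the cell type, the cluster that starts with miR-290 and marks mouse embryonic stem cells held 39333 and 10450 reads. Nearly all of these came from a single arm, miR-293-3p, with 38924 reads with DMSO and 10359 with SB431542. The miR-302 cluster of primed cells held 0 and 0, and the let-7 family of differentiated cells 39 and 14. A list of 12 other miRNAs of differentiated cells held 88 reads with DMSO and 16 with SB431542. The files held 1190074 and 645925 reads in all, and among reads of 15 to 17 nt the miRNA share was 7.87% for DMSO and 4.21% for SB431542. By construction, that smaller share shifts every log2 ratio by -0.90 when reads of 15 to 17 nt replace miRNA reads as the total.

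Among the cluster mates in the Mcm7 intron, the reads were almost entirely miR-25-3p. It had 10362 of 10377 cluster reads with DMSO (99.9%, 99.8 to 99.9) and 2954 of 2959 with SB431542 (99.8%, 99.6 to 99.9). miR-93-5p, from the middle hairpin, had 10 reads with DMSO and 3 with SB431542, and miR-106b-5p, from the first hairpin, had 5 and 0. Together Mir93 and Mir106b gave 15 and 3 reads, so there were 691 reads of miR-25-3p for each of theirs with DMSO and 985 with SB431542. These are counts of fragments of at most 17 nt, and how the full-length products of the 3 hairpins compare is not shown by them.

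The opposite arms were close to empty. miR-25-5p had 0 reads with DMSO and 2 with SB431542, and both sequences also occur in the noncoding gene Trp53cor1. The 3p arms of Mir93 and Mir106b, and both arms of Mir32, had 0 reads in either library, which allows up to 38.5 reads per 1000000 miRNA reads (RPM) with DMSO and 138 RPM with SB431542 for each, the levels of 3 reads. In all, 10 of the 14 arms had a read and 8 had one in both libraries. Only miR-25-3p and the shared miR-92a-3p reached 50 reads over both libraries, the number from which an arm is described here.

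**Figure D1:**
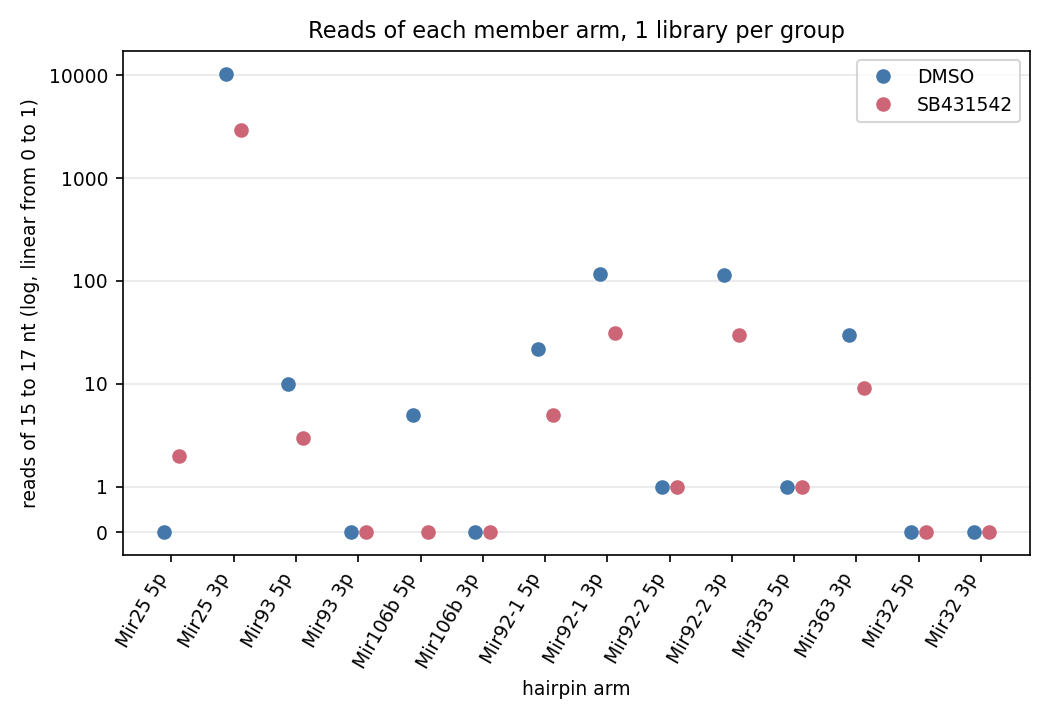
Reads of 15 to 17 nt (log axis, linear between 0 and 1) of the 14 member arms in the DMSO library (blue) and the SB431542 library (red), 1 point per library. Mir25 3p stands at 10362 and 2954 reads, and the next arms, Mir92-1 3p and Mir92-2 3p, which share nearly all of their reads, at 117 and 31 and at 114 and 30.

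Among the member arms with the seed AUUGCAC, miR-25-3p also had most reads, though its share was lower than in its own cluster. The intervals of these shares did not overlap in either library. miR-25-3p held 98.6% of the reads of these member arms with DMSO (98.4 to 98.8) and 98.7% with SB431542 (98.2 to 99.0). miR-92a-3p had 117 reads with DMSO and 31 with SB431542, or 1.11% (0.922 to 1.33) and 1.04% (0.705 to 1.47) of the seed group. miR-363-3p had 30 and 9 reads, or 0.285% and 0.301%, and miR-32-5p had 0 and 0. The intervals of the libraries overlapped for each of these shares.

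The miR-92a reads could mostly not be given to one of the copies on chromosomes 14 and X. Of the 117 and 31 reads of miR-92a-3p, 114 and 30 fit both hairpins, 3 and 1 fit Mir92-1 alone and 0 and 0 fit Mir92-2 alone. The 5p arms differ between the copies. The 5p arm of Mir92-1 had 22 reads with DMSO and 5 with SB431542, led by one 17 nt sequence at its mature start with 17 and 5 reads, while that of Mir92-2 had 1 and 1. The leading sequence of the 5p arm of Mir92-1 is shown with its seed in capitals, since it is the most abundant sequence that tells the copies apart.
miR-92a-1-5p: aGGTTGGGatttgtcgc

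A pair of further hairpins carry the seed and were taken as a comparison. Their reads are not part of the seed group shares above. Mir92b had 48 reads on its 3p arm with DMSO and 16 with SB431542. The other, in the miR-302 cluster, had 0 and 0. The 9 remaining hairpins of the miR-17-92 and miR-106a-363 clusters had 81 and 32 reads in all, with each sequence counted once. Mir18 (65 and 26) and Mir18b (66 and 28) share most of these. Mir17, the namesake of the family, had 7 and 2, Mir20a 4 and 0, Mir20b 3 and 2, Mir106a 1 and 0, and Mir19a, Mir19b-1 and Mir19b-2 had 0 in both libraries. None of these 9 came near the 10362 and 2954 reads of miR-25-3p.

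The start positions were next read against the mature 5′ ends. Of the miR-25-3p reads, 10350 of 10362 with DMSO (99.88%, 99.80 to 99.94) and 2951 of 2954 with SB431542 (99.90%, 99.70 to 99.98) began exactly at the mature start. The exceptions were 10 reads that began 1 base later and 2 that began 4 bases later with DMSO, and 2 that began 1 base earlier and 1 that began 5 bases later with SB431542. A shift of the start moves the seed, so nearly all of these fragments kept the annotated seed at their bases 2 to 8. In 33 of the 43 described miRNA arms the commonest start was also the mature start, in 8 it was elsewhere, and for 2 the table gave no mature start.

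miR-92a-3p was less uniform. Of its reads, 109 of 117 with DMSO (93.2%, 87.0 to 97.0) and 29 of 31 with SB431542 (93.5%, 78.6 to 99.2) began at the mature start. The others began up to 5 bases later, where 3 reads with DMSO and 2 with SB431542 started. Each of the 48 and 16 reads of miR-92b-3p began at its mature start.

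miR-363-3p departed from the annotated end. Only 1 of its 30 reads with DMSO, and 0 of 9 with SB431542, began at the RefSeq start. Of the rest, 20 and 8 began 1 base later and 9 and 1 began 2 bases later. The commonest start thus held 66.7% (47.2 to 82.7) and 88.9% (51.8 to 99.7). Both leading sequences are printed with what they hold of the annotated seed in capitals, so that the shift can be seen: the first begins with the seed and the second has lost its first base.
miR-363-3p from base 2: ATTGCACggtatccatc
miR-363-3p from base 3: TTGCACggtatccatct

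The first of these had 20 reads with DMSO and 7 with SB431542 and the second 9 and 0. On the 5p side of Mir363 each library had 1 sequence with 1 read. The RefSeq table gives no mature RNA for that arm, so these could not be set against a mature start. With so few reads, a difference between the libraries in these starts was not detectable.

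**Figure D2:**
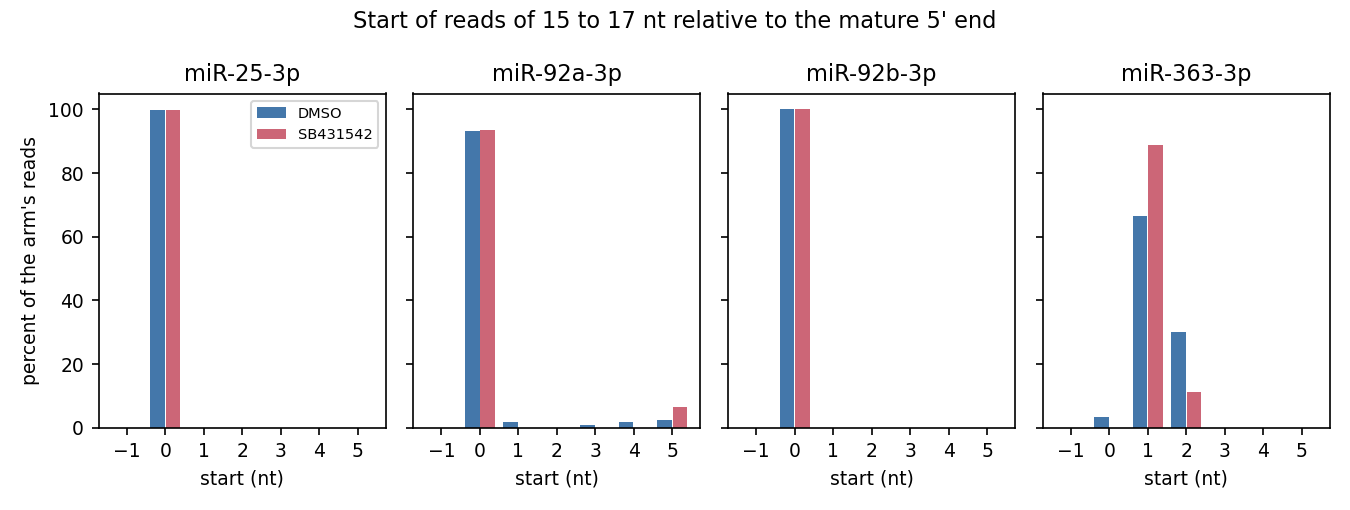
Percent of the 15 to 17 nt reads of each arm (y axis) by the start of the read relative to the mature 5′ end in nt (x axis), with DMSO in blue and SB431542 in red. Reads of miR-25-3p, miR-92a-3p and miR-92b-3p gather at 0, and those of miR-363-3p at 1 and 2 from 30 and 9 reads.

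The lengths of the miR-25-3p reads were dominated by one fragment. The 15 nt fragment alone had 8872 reads with DMSO and 2547 with SB431542, the 16 nt fragment 370 and 90, and the 17 nt fragment 1108 and 314. The 3 are nested, each with 1 base more at the 3′ end, and are printed with the seed in capitals.
15 nt: cATTGCACttgtctc
16 nt: cATTGCACttgtctcg
17 nt: cATTGCACttgtctcgg

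Reads of 15 nt made up 85.6% of miR-25-3p with DMSO (84.9 to 86.3) and 86.2% with SB431542 (84.9 to 87.4). Reads of 17 nt made up 10.8% (10.2 to 11.4) and 10.7% (9.57 to 11.8), and those of 16 nt 3.59% and 3.11%. The intervals of the libraries overlapped at each length. The 16 nt fragment was thus the rarest of the 3 in both libraries, and the number of reads did not move one way with length.

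miR-92a-3p, which has the same bases as miR-25-3p from position 2 to 13 and from 15 to 17, had no such peak. Its fragments from the mature start are printed beside their counts because they end at the same positions as those of miR-25-3p. The 15 nt fragment had 35 reads with DMSO and 9 with SB431542, the 16 nt fragment 30 and 9, and the 17 nt fragment 44 and 11.
15 nt: tATTGCACttgtccc
16 nt: tATTGCACttgtcccg
17 nt: tATTGCACttgtcccgg

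The 15 nt fragment also occurs in a transcript of Hnrnpul2. Reads of 15 nt were 29.9% of miR-92a-3p with DMSO (21.8 to 39.1) and 32.3% with SB431542 (16.7 to 51.4), and those of 17 nt 42.7% (33.6 to 52.2) and 38.7% (21.9 to 57.8). In both libraries the interval of its 15 nt share lay wholly below that of miR-25-3p. miR-92b-3p had 8.33% of its reads at 15 nt with DMSO (2.32 to 20.0) and 62.5% at 17 nt (47.4 to 76.0). miR-363-3p and miR-93-5p had no read of 15 nt. The reads of miR-363-3p were 17 nt long in 29 of 30 cases with DMSO and 7 of 9 with SB431542, and all 10 and 3 reads of miR-93-5p were 17 nt long.

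Over the 43 described arms, miR-25-3p had the highest share of 15 nt reads in both libraries, where the median was 8.33% with DMSO and 8.45% with SB431542. The leading sequence was 15 nt long in 5 of the 43 arms, 16 nt in 12 and 17 nt in 26. The 5 were miR-25-3p, miR-292-5p, miR-182-3p, miR-6538-5p and miR-181d-5p. The next highest share of 15 nt reads was that of miR-292-5p, at 74.3% with DMSO and 67.3% with SB431542. The shares for arms with few reads have wide counting error, and no test was made of this order. The 3 other arms nearest to miR-25-3p in DMSO reads had their most abundant sequence at 16 nt (miR-382-5p, with 20.9% of its reads at 15 nt) or at 17 nt (miR-409-3p, 15.3%, and miR-296-3p, 7.09%).

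**Figure D3:**
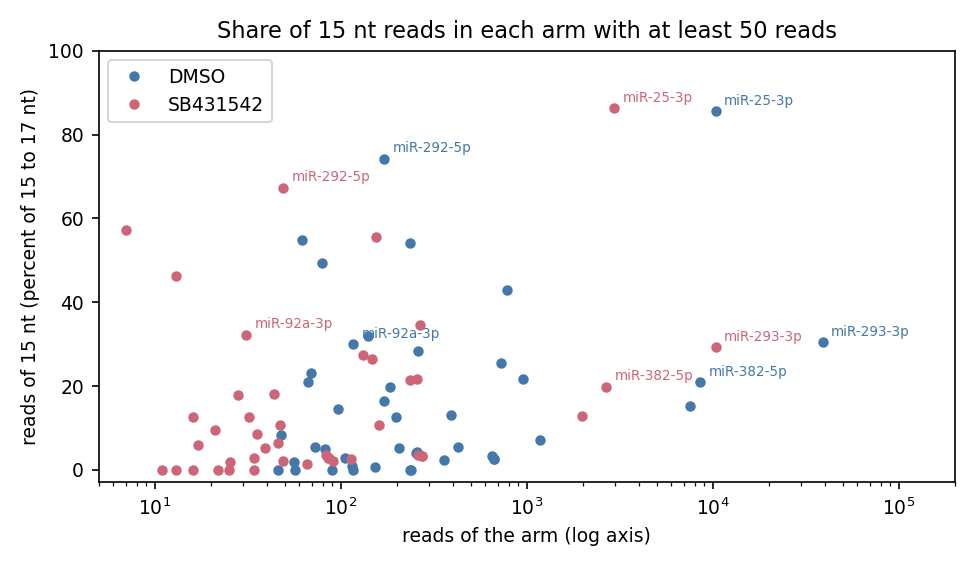
Share of 15 nt reads (percent of 15 to 17 nt, y axis) against the reads of the arm (log axis) for the 43 described arms, 1 point per arm and library, with DMSO in blue and SB431542 in red. miR-25-3p lies highest in both, at 85.6% and 86.2%, and miR-92a-3p stands at 29.9% and 32.3%.

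Shorter reads from the same 5′ end placed the 15 nt fragment within a series. With DMSO there were 155 reads of the first 12 bases of miR-25-3p, 1010 of the first 13 and 1248 of the first 14. With SB431542 the numbers were 25, 245 and 298. Reads of 11 and 10 bases numbered 63 and 6 with DMSO and 5 and 1 with SB431542. In both libraries the number was thus highest at 15 nt, much lower at 16 and higher again at 17. The shorter sequences are less specific: that of 14 nt occurs in transcripts of 3 annotated genes, Mir25 and Mcm7 among them, that of 13 nt in 7 and that of 12 nt in 13. The 39 sequences that differ from the 13 nt fragment by 1 base held 12 reads with DMSO and 3 with SB431542 in all. Among them is the 13 nt fragment of miR-92a-3p, which differs at base 1 only and had 6 and 1 of these reads. The 42 such neighbours of the 14 nt fragment held 8 and 1.

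Of the reads of 12 to 17 nt that began at the mature start, the 15 nt fragment made up 69.5% with DMSO (68.7 to 70.3) and 72.4% with SB431542 (70.9 to 73.9). Those of 12 to 14 nt made up 18.9% (18.2 to 19.6) and 16.1% (14.9 to 17.4). These intervals did not overlap. The same class was larger with SB431542 in the libraries as a whole, where reads of 12 to 14 nt were 15.8% of all reads of 12 to 17 nt with DMSO and 19.0% with SB431542. For miR-382-5p the share of 12 to 14 nt was 3.76% with DMSO (3.36 to 4.19) and 2.65% with SB431542 (2.06 to 3.34), for miR-296-3p 106 of 1274 reads (6.86 to 9.97%) and 10 of 263 (1.84 to 6.88%), and for miR-409-3p 0.278% (0.148 to 0.475) and 0.164% (0.0199 to 0.592). All 4 arms had a smaller short class with SB431542, with intervals that did not overlap for miR-25-3p and miR-382-5p. With 1 library each, the treatment and the library cannot be told apart.

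**Figure D4:**
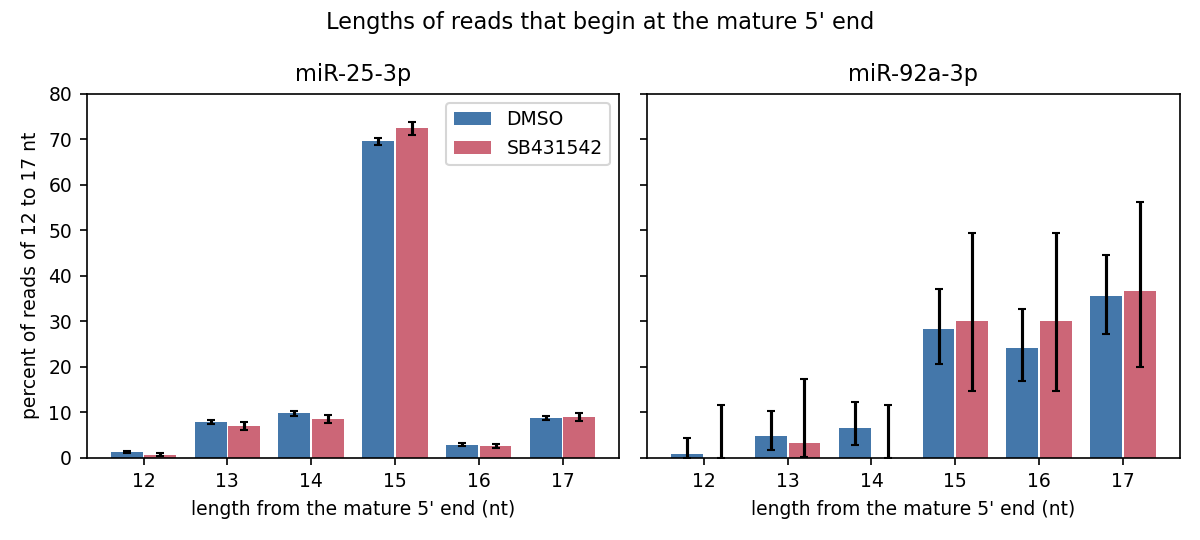
Percent of the reads of 12 to 17 nt that begin at the mature 5′ end (y axis) by length in nt (x axis) for miR-25-3p and miR-92a-3p, with DMSO in blue, SB431542 in red and exact 95% counting intervals as bars. miR-25-3p peaks at 15 nt with 69.5% and 72.4%, while miR-92a-3p is spread over 15, 16 and 17 nt, from 124 and 30 reads.

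The 3′ ends of some fragments carried bases that the hairpin does not have. The commonest were the 15 nt fragment of miR-25-3p followed by A, with 12 reads with DMSO and 2 with SB431542, or by AA, with 10 and 3. The hairpin has G at both of these places, and neither sequence occurred in an annotated transcript. They are shown with the added bases in capitals.
with A: cattgcacttgtctcA
with AA: cattgcacttgtctcAA

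Together these made up 0.247% of the reads of the 15 nt fragment and themselves with DMSO (0.155 to 0.374) and 0.196% with SB431542 (0.0636 to 0.457). Other added ends on the same fragment had 4 reads with DMSO and 0 with SB431542. For comparison, the 28 sequences seen with 1 base different from the 15 nt fragment at any position had 50 reads with DMSO and 16 with SB431542, or 0.560% (0.416 to 0.738) and 0.624% (0.357 to 1.01). The commonest of them, C8T, counted from the 5′ end, had 10 and 2 reads. C1T had 5 and 2. These rates have the 15 nt fragment as their base, but the sequence with A also differs by 1 base from the 16 nt fragment. That fragment had 370 reads with DMSO and 90 with SB431542. Its 48 neighbours with 1 base different held 19 and 2 reads in all, of which the sequence with A had 12 and 2. Sequencing and amplification errors are among such variants, and their part in the added bases was not tested.

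In the comparison of SB431542 with DMSO, the member arms differed little on the scale of miRNA reads. miR-25-3p had 133024 RPM with DMSO and 135492 RPM with SB431542, a log2 ratio of 0.03 (-0.03 to 0.09). The sum of the Mcm7 cluster had the same log2 ratio of 0.03 (-0.03 to 0.09), since it is nearly all miR-25-3p. miR-92a-3p had 1502 RPM with DMSO and 1422 RPM with SB431542, a log2 ratio of -0.06 (-0.70 to 0.50). Each of these intervals included 0. In bulk RNA, fewer cells with a miRNA and less of it per cell cannot be told apart. The members without miR-25-3p had 186 and 52 reads in all, with a log2 ratio of 0.01 (-0.47 to 0.45).

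Of the 43 described arms, 5 were at least 2-fold apart between the libraries in RPM, which is 11.6%, and 0 of the 2 member arms were among them. The 5 were 3 higher with SB431542 (6.98%) and 2 lower (4.65%). The median log2 ratio of the 43 arms was 0.13. Counting from the highest ratio, miR-25-3p was number 24 and miR-92a-3p number 26 of 43. The comparison arm miR-92b-3p had 616 RPM with DMSO and 734 RPM with SB431542, a log2 ratio of 0.28 (-0.66 to 1.09).

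The other member arms had too few reads to place. miR-363-3p stood at 385 RPM with DMSO and 413 RPM with SB431542, a log2 ratio of 0.15 (-1.16 to 1.21). The 5p arm of Mir92-1 stood at 282 and 229 RPM (-0.20, -2.06 to 1.14), and miR-93-5p at 128 and 138 RPM (0.25, -2.40 to 2.06). For miR-106b-5p the 5 reads with DMSO corresponded to 64.2 RPM, below the 138 RPM that 0 reads allow with SB431542. A difference of 2-fold in these arms was not detectable at this depth.

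The ratios were also taken for the single fragments of miR-25-3p from the mature start. Their log2 ratio in RPM was 0.04 for 15 nt (-0.03 to 0.10), -0.20 for 16 nt (-0.55 to 0.13) and 0.02 for 17 nt (-0.17 to 0.20). On the same scale the shorter ones stood at -0.23 for 14 nt (-0.42 to -0.05), -0.20 for 13 nt (-0.41 to -0.0036) and -0.77 for 12 nt (-1.47 to -0.18).

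The sign for miR-25-3p depended on the scale. Against all reads of 15 to 17 nt, the log2 ratio of miR-25-3p was -0.87 (-0.93 to -0.82) and that of miR-92a-3p -0.96 (-1.60 to -0.40). On that scale the median of the 43 arms was -0.77, 15 of them (34.9%) were at least 2-fold lower with SB431542 and 0 at least 2-fold higher, and neither member arm was among the 15. With edgeR TMM factors the log2 ratio of miR-25-3p was -0.32 (-0.38 to -0.26) and with DESeq2 size factors -0.23 (-0.29 to -0.17). Without the 5 most abundant arms in the miRNA total it was -0.15 (-0.21 to -0.09). These intervals of miR-25-3p excluded 0, while those of miR-92a-3p on the same scales included it. The miRNA total rests largely on 1 arm, as miR-293-3p held 38924 of 77896 miRNA reads with DMSO and 10359 of 21802 with SB431542. The shares of arms, starts and lengths within a library, given above, need no scale between the libraries.

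**Figure D5:**
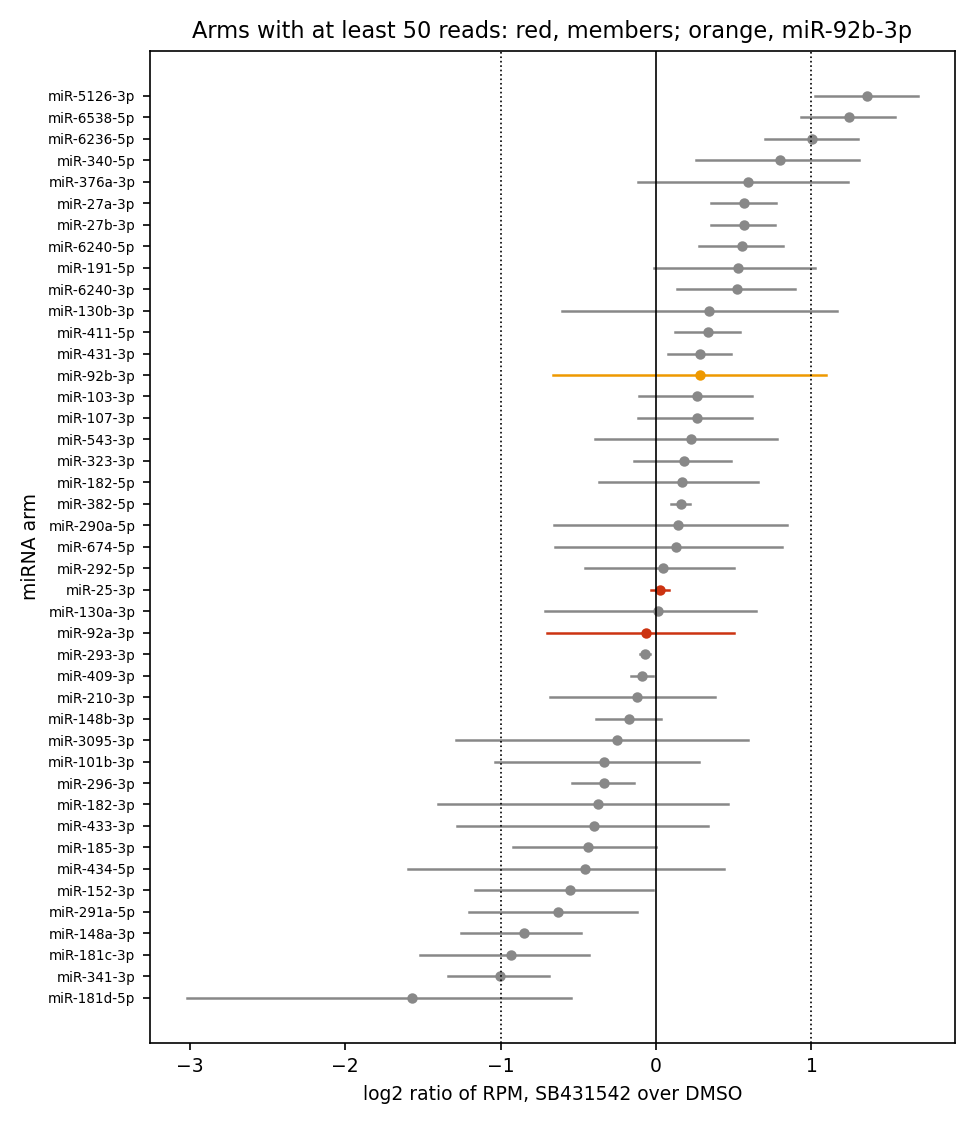
The log2 ratio of RPM, SB431542 over DMSO, with its exact 95% counting interval (x axis) for the 43 described arms (y axis), members in red and miR-92b-3p in orange, with dotted lines at 2-fold. miR-25-3p at 0.03 and miR-92a-3p at -0.06 lie in the middle of the arms, with intervals that include 0.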

How the data were processed

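Short RNA reads were compared between 1 DMSO library and 1 SB431542 library. Per the labels, total RNA was isolated with TRIzol and libraries were made with an Illumina TruSeq RNA kit. The labels describe no selection of small RNAs, so the size selection behind each length share is unknown. Each deposited file lists sequences of 3 to 17 nt with their raw count of reads. The sources used here do not say how reads were trimmed, filtered or aligned. The submitters' processing notes name build mm9, from which nothing was taken.

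Sequences of 15 to 17 nt were matched exactly on the sense strand to GENCODE M21 (GRCm38) transcripts. A hairpin was split at its middle into arms. For the described arms, reads that fit several miRNAs were split evenly between them. In the counts of single hairpins and their arms, shared reads were counted in each hairpin. For the miRNA total, a sequence was left out if it also fits a different kind of small RNA or over 5 further genes. This removed no member sequence. Ratios used a pseudocount of 0.5 read, and intervals are 95% Clopper-Pearson or exact conditional binomial. The intervals cover counting error only, as PCR copies cannot be told from separate molecules. All arms of the members are accounted for, and sequences were named by their share of an arm (at least 1%, or the leading one). Others were named after their counts were seen: the fragments under 15 nt, the added ends, the variants and the second sequence of miR-363-3p. The members and lists were chosen with earlier results of these data known. The code was tested on simulated data. Alternatives covered the scale, pseudocount, minimum length, shared sequences, a differing last base, distinct sequences, the leading sequence and thinning. Python 3.11.15, numpy 2.4.6, scipy 1.17.1, matplotlib 3.10.9, R 4.3.3, edgeR 4.0.16 and DESeq2 1.42.0 were used.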

Additional observations from a re-analysis of the deposited data

How the results depend on the processing

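The log2 ratio of miR-25-3p was -0.87 with reads of 15 to 17 nt as the total, -0.93 with all reads, -0.32 with edgeR TMM factors, -0.23 with DESeq2 factors, -0.15 when the 5 most abundant arms were left out of the total, -0.054 with a minimum length of 16 nt and -0.053 with 17 nt only, 0.48 with each distinct sequence counted once and -0.048 with no sequence set aside, an alternative chosen after seeing the data. The Mcm7 cluster gave -0.87, -0.93, -0.32, -0.23, -0.15, -0.054, -0.054, 0.56 and -0.048 in the same order. miR-92a-3p gave -0.96 and -1.02 under the first pair of totals. The shift of -0.90 with the reads of 15 to 17 nt is that of the total itself. In the same way, TMM factors shift every log2 ratio by -0.35 and DESeq2 factors by -0.25. With all reads, without the 5 most abundant arms and with no sequence set aside, only the total changed, which shifts the member ratios alike. The causes of the moves with minimum length and with distinct sequences were not tested.

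The share of miR-25-3p in its cluster was 99.0% with DMSO and 99.0% with SB431542 from 16 nt, 98.7% and 98.7% at 17 nt, 66.7% and 62.5% over distinct sequences, and 99.0% and 98.8% without the leading sequence. The share at the mature start was 99.2% and 99.3%, 99.1% and 99.7%, 50.0% and 60%, and 99.2% and 99.3% in the same order. The share of 17 nt was 75.0% and 77.4% from 16 nt, 50.0% and 40.0% over distinct sequences, 75.0% and 77.4% without the leading sequence, and 9.62% with DMSO from 14 nt. At 17 nt alone that share has no value. Of 97 values under an alternative, 54 stayed within the counting interval. No paired analysis was possible because each group has 1 library.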
